A study of Rattus norvegicus with 4 samples.

Results

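The genes described here are the matrix metalloproteinases (Mmp), their tissue inhibitors (Timp), the membrane-anchored ADAM genes, and the secreted ADAMTS proteases with the related ADAMTS-like genes. They were chosen by gene symbol alone, and 63 of the 18699 genes of the expression table carried such a symbol: 4 Timp, 18 Mmp, 17 Adam, 19 Adamts and 5 Adamtsl genes. Neonatal rat ventricular myocytes, which are heart muscle cells in primary culture, were treated for 24 h with 1 µM carfilzomib, a myeloma drug that binds and blocks the proteasome for good, or with vehicle. The RNA of 2 carfilzomib and 2 vehicle libraries was sequenced. All 4 libraries came from wild-type Sprague Dawley rats aged 1 to 3 days, and all cells were kept in medium with 15% serum, penicillin, streptomycin, glutamine and 0.1 mM bromodeoxyuridine, an agent given to hold back cells other than cardiomyocytes. Whether the replicates stem from different cultures or litters is not stated in the labels, so each p-value reflects the spread among these libraries alone, which may be technical.

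Matrix metalloproteinases are zinc proteases that cut collagens, proteoglycans and other proteins outside the cell, and most are made as inactive precursors. TIMPs block their active site. ADAMs sit in the cell membrane and mostly release the outer part of other membrane proteins, while ADAMTS enzymes are secreted and process procollagens and large proteoglycans. The symbols also take in genes that encode no active protease: ADAMTS-like proteins lack the protease domain, and ADAM11, ADAM22 and ADAM23 lack the catalytic zinc site. In the heart these genes are known for the turnover of the matrix between muscle cells, and much of their expression is attributed to fibroblasts.

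The 4 libraries held 18655499 to 18884362 estimated counts, and the 63 genes took 0.440% to 0.448% of them in carfilzomib libraries and 0.488% to 0.493% in vehicle libraries. Markers of cardiomyocytes were abundant, with a summed level of 17715 and 16712 TPM in carfilzomib libraries and 33223 and 33633 TPM in vehicle libraries (TPM is a transcript level scaled to gene length and to sequencing depth). Markers of other cells were present too. The 10 fibroblast markers summed to 5687 and 5455 TPM with carfilzomib and to 10195 and 10194 TPM with vehicle, and none of the 10 was at 0. Smooth muscle and pericyte markers summed to 2170 and 2113 TPM with carfilzomib and 5829 and 5960 TPM with vehicle. In this sum Acta2 alone stood at 755 and 740 TPM with carfilzomib and at 3225 and 3227 TPM with vehicle. Which cells made Acta2 was not tested. Macrophage markers summed to 61.2 and 55.2 TPM with carfilzomib against 121 and 122 TPM with vehicle. All 10 fibroblast markers fell, as did all 8 markers of smooth muscle and pericytes, while 30.1% of all genes tested were lower. Of 10 cardiomyocyte markers 9 fell, and of 8 endothelial markers, which summed to 56.2 and 53.8 TPM with carfilzomib and 50.2 and 49.1 TPM with vehicle, 2 rose and 2 fell. The part of these cells in the changes below was not tested, and in bulk RNA fewer cells of a type and less RNA per cell cannot be told apart.

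Most of the matrix protease genes that changed with carfilzomib fell, while among 12 tested ADAM genes 4 rose, 2 fell and 6 were not called. Of the 63 genes 50 passed a filter on low counts and were tested. Carfilzomib raised 9 of the 50, lowered 27, and 14 did not pass the threshold. A gene was called when edgeR's quasi-likelihood test gave a Benjamini-Hochberg adjusted p under 0.05 over all 14519 genes tested, and every fold change is carfilzomib over vehicle. Over all genes tested 60.7% were called, 30.6% higher and 30.1% lower, against 72% of the 50, with 18% higher and 54% lower. The median log2 fold change of the 50 was -0.44, while that of all genes tested was 0.00. At least 2-fold higher were 3 of the 50 (3.74% of all genes tested), and at least 2-fold lower were 8 (7.38% of all genes tested). The plot of fold changes by family shows the order of the genes within each.

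**Figure D1:**
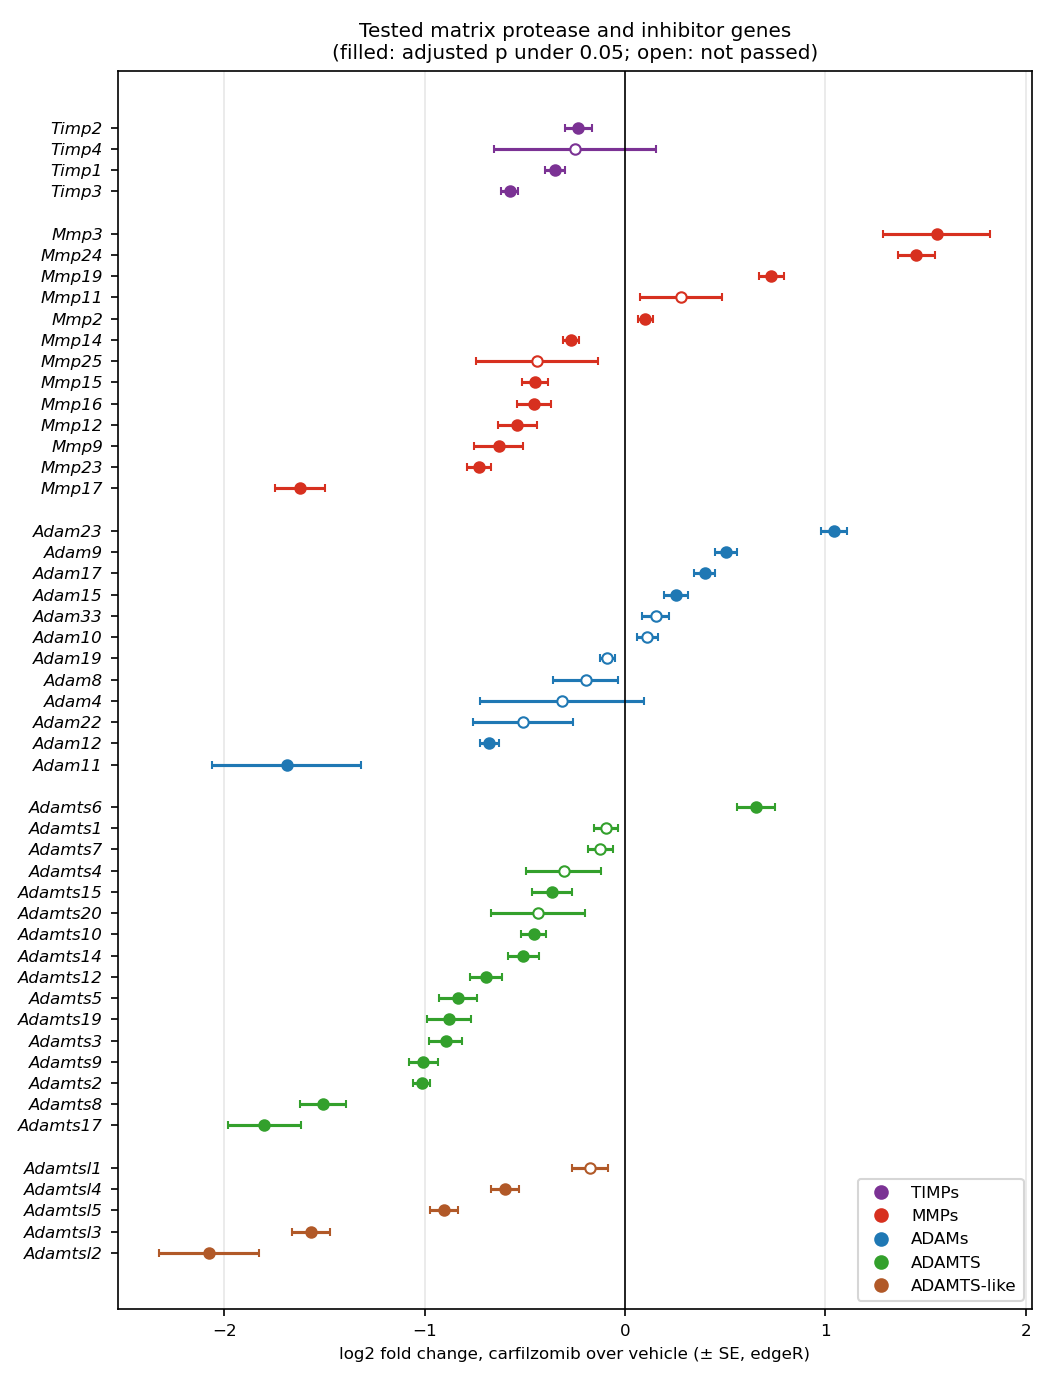
Log2 fold change, carfilzomib over vehicle, of the 50 tested genes, with horizontal bars for the standard error from edgeR, grouped by family (colour). Filled points passed an adjusted p under 0.05 and open points did not; all 4 TIMPs and all 5 ADAMTS-like genes lie left of 0, and Adamts6 is the only one of 16 ADAMTS genes to the right.

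Expression within the families was carried by a few genes. Over the 4 libraries 5 of the 63 genes averaged at least 100 TPM, 21 lay between 10 and 100 TPM, 19 between 1 and 10 TPM, and 18 below 1 TPM. Mmp2, Mmp14, Timp1 and Timp2 together held 68.4% and 68.2% of the summed TPM of the 63 genes in carfilzomib libraries and 66.6% and 68.6% in vehicle libraries. The fifth was Adam19. By mean TPM with vehicle the order was Timp1, Mmp2, Mmp14, Timp2, and with carfilzomib it was Mmp2, Timp1, Mmp14, Timp2. These 4 genes make up a known surface system in which the membrane protease MMP14, held by TIMP2, activates the precursor of MMP2.

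Of the 4 inhibitors 3 fell, while 30.1% of all genes tested were lower. Timp1 (gene ID 116510), a secreted inhibitor of most metalloproteinases, stood at 538 and 552 TPM in carfilzomib libraries and at 659 and 727 TPM in vehicle libraries. The groups did not overlap, and Timp1 fell 1.27-fold (log2 fold change -0.35 ± 0.05 SE, edgeR adjusted p 4.77e-05). Timp3, the inhibitor that binds to the matrix and also blocks ADAM17 and several ADAMTS proteases, was at 63.3 and 63.4 TPM with carfilzomib and 96.9 and 94.0 TPM with vehicle. This was the largest fall among the 4 TIMPs in the edgeR fit, 1.49-fold, with a log2 fold change of -0.57 ± 0.04 (SE). Timp2, needed for the activation of MMP2 as well as for its inhibition, had 404 and 377 TPM with carfilzomib against 432 and 484 TPM with vehicle. Its groups lay close to each other, and it fell by 0.23 on the log2 scale with an edgeR adjusted p of 0.0156. Leaving out carfilzomib replicate 2 gave Timp2 a log2 fold change of -0.18 and an edgeR adjusted p of 0.0655, and leaving out vehicle replicate 2 gave -0.13, still called. Timp4, the inhibitor otherwise best known from heart, was near the limit of detection, with 15 and 10 counts in carfilzomib libraries and 15 and 14 counts in vehicle libraries, and did not pass.

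Mmp2 (gene ID 81686), gelatinase A, which cuts denatured collagen and basement membrane, was among the most abundant genes of the set, at 689 and 676 TPM with carfilzomib and 632 and 638 TPM with vehicle. Both carfilzomib libraries lay above both vehicle libraries, by a small step: the log2 fold change was 0.10 ± 0.04 (SE) and the edgeR adjusted p 0.0328. That call rested on single libraries, since the edgeR adjusted p of Mmp2 was 0.215 without carfilzomib replicate 1, 0.0862 without carfilzomib replicate 2 and 0.0676 without vehicle replicate 1, with log2 fold changes from 0.08 to 0.12. Mmp14 (gene ID 81707), the membrane activator of MMP2, moved the other way, at 473 and 462 TPM with carfilzomib and 559 and 566 TPM with vehicle. On the log2 scale it fell by 0.27 ± 0.04 (SE), at an edgeR adjusted p of 3.0e-05. Mmp9, gelatinase B, known from macrophages and neutrophils, was far lower in level, at 5.73 and 7.51 TPM with carfilzomib against 10.2 and 10.3 TPM with vehicle, and fell by 0.63 on the log2 scale. Of 7 macrophage markers tested 6 fell and 1 rose. All 10 fibroblast markers, all 8 of smooth muscle and pericytes and 9 of 10 cardiomyocyte markers fell too. Whether the fall of Mmp9 goes back to macrophages was not tested.

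Within each library the balance of the abundant genes can be read as a ratio of TPM. Timp1 to Mmp2 stood at 0.782 and 0.817 in carfilzomib libraries and at 1.04 and 1.14 in vehicle libraries. For Mmp14 to Mmp2 the ratio was 0.687 and 0.683 with carfilzomib and 0.884 and 0.887 with vehicle. Summed over families, TIMPs to Mmps gave 0.729 and 0.734 with carfilzomib and 0.826 and 0.904 with vehicle. The groups did not overlap in any of these 3 ratios, which share genes and so are not separate observations. Among single genes the groups did not overlap in 11595 of the 14519 tested. With 2 libraries a group an exact test of a single ratio cannot reach a p under 0.05, and none is given.

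**Figure D2:**
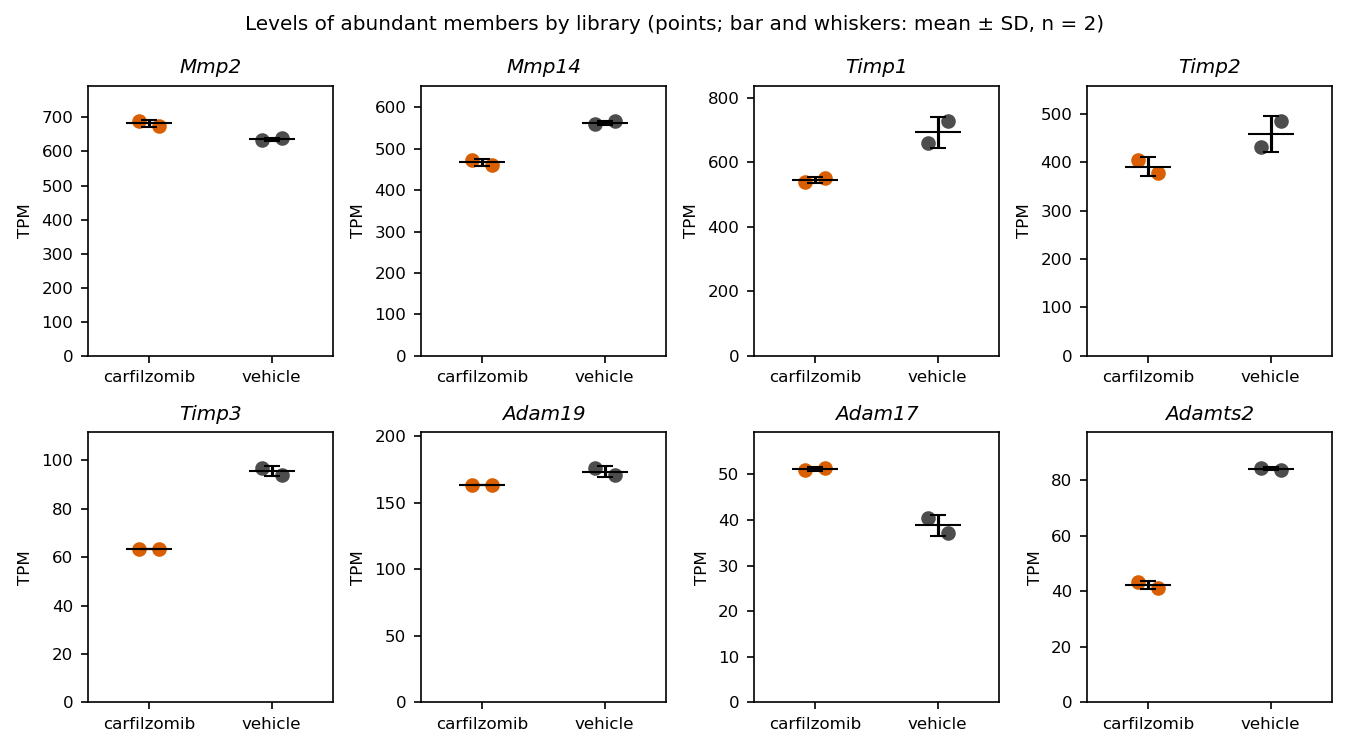
TPM of 8 of the more abundant genes in carfilzomib (orange) and vehicle (grey) libraries; each point is 1 library, and the bar with whiskers is the mean ± SD of n = 2. Mmp2 and Adam17 lie higher with carfilzomib, Mmp14, Timp1, Timp2, Timp3 and Adamts2 lower, and Adam19 lies slightly lower without passing the test.

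Membrane-type metalloproteinases besides Mmp14 mostly fell. Mmp17, which is tied to the membrane by a lipid anchor, dropped to 4.76 and 3.53 TPM in carfilzomib libraries, against 14.1 and 13.5 TPM in vehicle libraries. That is 3.08-fold lower, with a log2 fold change of -1.62 ± 0.13 (SE). Mmp15 and Mmp16, transmembrane relatives of Mmp14, both fell by 0.45 on the log2 scale, and the estimated counts of Mmp16 carry decimals. For Mmp16 the levels were 6.98 and 7.75 TPM with carfilzomib and 10.3 and 9.59 TPM with vehicle. Mmp25, with 20 to 29 counts per library, did not pass. The exception was Mmp24, a membrane-type protease best known from the nervous system. It reached 14.2 and 12.8 TPM with carfilzomib, against 4.70 and 5.15 TPM with vehicle, and rose 2.74-fold (log2 fold change 1.45 ± 0.09 SE, edgeR adjusted p 4.3e-09). So 4 of the 6 membrane-type genes fell, 1 rose and 1 failed the test. That is 83.3% called, against 60.7% of all genes tested.

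The metalloproteinases Mmp19 and Mmp23 moved in opposite directions. Mmp19, a broad matrix protease of the same family, rose to 62.6 and 63.7 TPM in carfilzomib libraries, against 39.0 and 37.1 TPM in vehicle libraries, 1.66-fold. Mmp23, an unusual member without the haemopexin domain of most relatives, changed by as much in the other direction, at 60.0 and 60.2 TPM with carfilzomib and 100.1 and 97.3 TPM with vehicle. Their log2 fold changes were 0.73 ± 0.06 and -0.73 ± 0.06 (SE). Mmp11, stromelysin 3, had 24.8 and 18.9 TPM with carfilzomib against 20.4 and 15.7 TPM with vehicle, and its groups overlapped. It did not pass, with a log2 fold change of 0.28 and an edgeR adjusted p of 0.323. Leaving out a library moved both ways, to a log2 fold change of 0.47 and an edgeR adjusted p of 0.00821 without carfilzomib replicate 2 and to 0.065 and 0.719 without carfilzomib replicate 1.

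Mmp3, Mmp10, Mmp12 and Mmp13 belong to a cluster of neighbouring metalloproteinase genes on rat chromosome 8 of the RefSeq assembly GRCr8. Of these Mmp3, stromelysin 1, which also activates other metalloproteinase precursors, rose at a low level: it stood at 3.94 and 5.94 TPM with carfilzomib (61.7 and 91.9 estimated counts) and at 1.46 and 1.89 TPM with vehicle (22 and 28.9). Mmp3 rose by a log2 fold change of 1.56 ± 0.27 (SE) at an edgeR adjusted p of 1.41e-04, and its counts carry decimals. Mmp3 and Mmp24 had the largest rises among the 50 genes in the edgeR fit; which came first depended on the library left out, since without carfilzomib replicate 2 Mmp3 was at 1.24 and Mmp24 at 1.53. Mmp12, the elastase of macrophages, is separated from Mmp3 by 1 protein-coding gene and fell, with 14.0 and 14.9 TPM in carfilzomib libraries against 19.7 and 22.1 TPM in vehicle libraries, a log2 fold change of -0.54 ± 0.10 (SE). Mmp10, a second stromelysin, was too low to be tested, with 12.3 and 7.07 estimated counts in carfilzomib libraries and 4 and 3.09 in vehicle libraries. Collagenase genes were at the limit of detection: Mmp13 had 1 and 0 counts with carfilzomib and 2 and 0 with vehicle, and Mmp8 a single count in all.

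Genes of this cluster are textbook targets of the transcription factor AP-1, a pair of Fos and Jun proteins. The 120 bases before the annotated start of 4 of them are shown because Mmp3 rose and its neighbour Mmp12 fell, with Mmp10 and Mmp13, which were too low to be tested, beside them, from RefSeq on GRCr8, plus strand, with matches to the AP-1 motif TGANTCA in capitals.
Mmp3, chr8:12925161-12925280: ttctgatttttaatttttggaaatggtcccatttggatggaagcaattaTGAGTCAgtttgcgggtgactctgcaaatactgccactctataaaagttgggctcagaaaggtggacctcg
Mmp10, chr8:12974587-12974706: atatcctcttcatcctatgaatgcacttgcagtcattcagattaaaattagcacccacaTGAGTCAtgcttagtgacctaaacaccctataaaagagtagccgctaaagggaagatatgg
Mmp12, chr8:12866532-12866651: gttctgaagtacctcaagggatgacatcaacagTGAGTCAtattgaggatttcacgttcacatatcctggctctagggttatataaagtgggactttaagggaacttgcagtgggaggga
Mmp13, chr8:12782709-12782828: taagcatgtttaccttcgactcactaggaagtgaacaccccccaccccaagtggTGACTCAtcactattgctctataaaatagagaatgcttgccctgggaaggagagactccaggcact
All 4 hold the motif, starting at -71, -61, -87 and -66 from the start in the order printed, and a TATAAA box nearer to the start. The motif reads the same on both strands apart from its middle base. It was found in the 250 bases before the start of 6 of the 44 genes with a RefSeq promoter entry (13.6%), which besides these 4 were Mmp20 and Adam19, and in 6.99% of 27457 genes. The antioxidant response element TGACNNNGC, searched on both strands, was in 7 of the 44 (15.9%) and in 11% of all; in Mmp3 it starts at -55 and overlaps no AP-1 match, and Timp1 holds one at -215. The gene that rose, Mmp3, and the gene that fell, Mmp12, both hold an AP-1 match. A match describes the letters only.

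Of 11 factors of the AP-1 and ETS groups, which are known to act on these promoters, 1 rose, 7 fell and 3 were not called. This is 72.7% called, against 60.7% of all genes tested. The median log2 fold change was -0.28. Fosl1, an AP-1 subunit, rose to 28.8 and 23.5 TPM with carfilzomib, against 17.7 and 18.8 TPM with vehicle, a log2 fold change of 0.52. Fos, the founding subunit, fell by 1.20 on the log2 scale, and Etv5, an ETS factor, by 0.89. Under DESeq2 2 of the 11 rose and 4 fell, with library size alone as scaling 3 rose, and without vehicle replicate 2 only 4 fell.

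Of 8 tested ADAMs with a catalytic site 3 rose, 1 fell and 4 were not called. That is 50% called, against 60.7% of all genes tested, and 30.6% of all genes tested were higher. Adam17, which releases TNF and ligands of the EGF receptor, was at 50.9 and 51.4 TPM in carfilzomib libraries and at 40.5 and 37.1 TPM in vehicle libraries. It rose 1.32-fold (log2 fold change 0.40 ± 0.05 SE, edgeR adjusted p 1.04e-05). Adam9, another sheddase of wide expression, rose to 70.3 and 72.1 TPM with carfilzomib, against 52.7 and 47.7 TPM with vehicle, 1.42-fold. Adam15, a further widely expressed membrane protease, rose by a log2 fold change of 0.26. Adam10, the main sheddase of Notch and N-cadherin, had 64.6 and 63.7 TPM with carfilzomib and 62.5 and 55.6 TPM with vehicle. It did not pass, with a log2 fold change of 0.11 and an edgeR adjusted p of 0.0823; without vehicle replicate 1 these were 0.19 and 0.0107, and without vehicle replicate 2 they were 0.041 and 0.492. With library size alone as scaling the edgeR adjusted p of Adam10 was 0.0285. Adam33, at a log2 fold change of 0.15, did not pass; over the alternatives its adjusted p ran from 0.0262 in edgeR with library size alone to 0.352 in DESeq2.

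The meltrins Adam12 and Adam19, relatives first described in muscle cells, made up a large part of the ADAM messages. Adam19 alone held 34.2% and 34.3% of the summed ADAM TPM with carfilzomib and 38.3% and 38.9% with vehicle. At 163 and 163 TPM with carfilzomib and 176 and 171 TPM with vehicle it was not called (edgeR adjusted p 0.0577); this p was 0.0350 without vehicle replicate 2 and 0.0418 with the stricter filter on low counts, but 0.256 without carfilzomib replicate 2. Adam12, known from mouse heart as a sheddase of HB-EGF, was at 32.0 and 31.7 TPM with carfilzomib and 53.1 and 49.0 TPM with vehicle, and fell, with a log2 fold change of -0.68 ± 0.05 (SE). Both genes have estimated counts with decimals. Adam8, known from leukocytes, had 88.9 to 108 estimated counts per library and did not pass.

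Of the 3 ADAMs that lack a catalytic site and are known as receptors of LGI proteins in nerve cells, 1 rose and 1 fell. Adam23 rose 2.06-fold, to 14.9 and 16.2 TPM in carfilzomib libraries against 7.85 and 7.57 TPM in vehicle libraries, with a log2 fold change of 1.05 ± 0.07 (SE). Adam11 was scarce, with 9.02 and 8.04 estimated counts with carfilzomib against 27.1 and 26.7 with vehicle, and fell by 1.69 ± 0.37 (SE) on the log2 scale. DESeq2 gave Adam11 an adjusted p of 0.0542. Adam22 had 40 and 42 counts with carfilzomib against 68 and 46 with vehicle and was not called, at an edgeR adjusted p of 0.0895; leaving out vehicle replicate 2 gave a log2 fold change of -0.76 and a p of 0.0394, and leaving out vehicle replicate 1 gave -0.20 and 0.596. Over the whole ADAM family 4 of 12 tested genes rose, 2 fell and 6 were not called. That is 50% called, against 60.7% of all genes tested, of which 30.6% were higher. The median log2 fold change was 0.01, against 0.00 over all genes tested. Over the 6 ADAMs without decimals in their counts the median was 0.20.

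Most tested ADAMTS proteases fell: of 16 tested, 11 fell, 1 rose and 4 were not called, and the median log2 fold change was -0.60. That is 75% called, against 60.7% of all genes tested, and 30.1% of all genes tested were lower. Their summed level was 168 and 166 TPM in carfilzomib libraries and 259 and 252 TPM in vehicle libraries. The 3 procollagen N-proteinases, which trim the amino end of fibrillar procollagens, all fell. Adamts2 is the main one and was the most abundant ADAMTS gene in these libraries. It stood at 43.3 and 41.3 TPM with carfilzomib against 84.6 and 83.9 TPM with vehicle, 2.02-fold lower. Its log2 fold change was -1.02 ± 0.04 (SE), and its estimated counts carry decimals. Adamts3, known mainly for the activation of VEGF-C in the mouse, fell by 0.89, and stood at 4.28 and 4.06 TPM with carfilzomib against 8.01 and 7.48 TPM with vehicle. Adamts14 had 7.56 and 8.82 TPM with carfilzomib against 11.6 and 11.6 TPM with vehicle and fell by 0.51 on the log2 scale. Col3a1, a fibrillar procollagen among the fibroblast markers, fell by 1.27 in the same libraries.

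Of the 7 proteoglycanases, which cut versican and aggrecan, 4 fell and 3 did not pass. This is 57.1% called, below the 60.7% of all genes tested, though only 30.1% of all genes tested were lower. Adamts8 fell 2.84-fold, to 2.68 and 3.02 TPM in carfilzomib libraries against 7.99 and 8.20 TPM in vehicle libraries. Adamts9 was at 8.25 and 9.52 TPM with carfilzomib and 18.8 and 16.9 TPM with vehicle, a log2 fold change of -1.01 ± 0.07 (SE). Adamts5, the principal aggrecanase of mouse cartilage, had 8.17 and 8.64 TPM with carfilzomib against 15.9 and 14.1 TPM with vehicle and fell by 0.83 on the log2 scale. Its direct neighbour in the genome, Adamts1, a versican-cutting enzyme, had 26.0 and 24.7 TPM with carfilzomib against 27.5 and 26.7 TPM with vehicle, with a log2 fold change of -0.10 ± 0.06 (SE) that did not pass, at an edgeR adjusted p of 0.179. Adamts8 also has a direct neighbour in the set, Adamts15, which had a log2 fold change of -0.36. That call of Adamts15 depended on a library, with a log2 fold change of -0.20 and an edgeR adjusted p of 0.102 without vehicle replicate 1, and DESeq2 gave it an adjusted p of 0.0741. Adamts4 and Adamts20, with 38 to 75.3 estimated counts per library, did not pass.

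The remaining tested ADAMTS genes form pairs of close relatives. In the pair that acts on fibrillin microfibrils, Adamts6 rose and Adamts10 fell. Adamts6 was at 6.36 and 6.73 TPM with carfilzomib and 4.20 and 4.05 TPM with vehicle, a log2 fold change of 0.65 ± 0.09 (SE), while Adamts10 had -0.45 ± 0.06 (SE). In the pair Adamts17 and Adamts19 both fell. Adamts17 reached 0.680 and 0.600 TPM with carfilzomib against 2.42 and 2.05 TPM with vehicle, 3.48-fold lower, and Adamts19 had 2.85 and 2.87 TPM with carfilzomib against 5.16 and 5.35 TPM with vehicle, 1.84-fold lower. Of the pair that cuts cartilage oligomeric matrix protein, Adamts12 fell to 4.22 and 4.54 TPM with carfilzomib, against 7.55 and 6.60 TPM with vehicle, and Adamts7 did not pass, with a log2 fold change of -0.12 and an edgeR adjusted p of 0.105.

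ADAMTS-like proteins have no protease domain and bind to the matrix, several of them to fibrillin. Of the 5 genes 4 fell and 1 did not pass, which is 80% called, against 60.7% of all genes tested. Their median log2 fold change of -0.90 was the lowest among the 5 families. Adamtsl2, mutated in human geleophysic dysplasia, showed the largest fall of the 50 genes in the edgeR fit, 4.21-fold, with 19 and 18 counts in carfilzomib libraries against 82 and 71 counts in vehicle libraries. This came to -2.08 ± 0.25 (SE) on the log2 scale, at an edgeR adjusted p of 3.99e-06. Adamtsl3 was at 2.29 and 2.48 TPM with carfilzomib against 7.30 and 6.77 TPM with vehicle, 2.96-fold lower. Adamtsl5, the most abundant of the 5, had 25.4 and 26.1 TPM with carfilzomib against 47.9 and 50.1 TPM with vehicle and fell by 0.90 on the log2 scale. Adamtsl4, linked to the suspension of the lens in humans, fell by 0.60, and Adamtsl1 did not pass at -0.17.

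**Figure D3:**
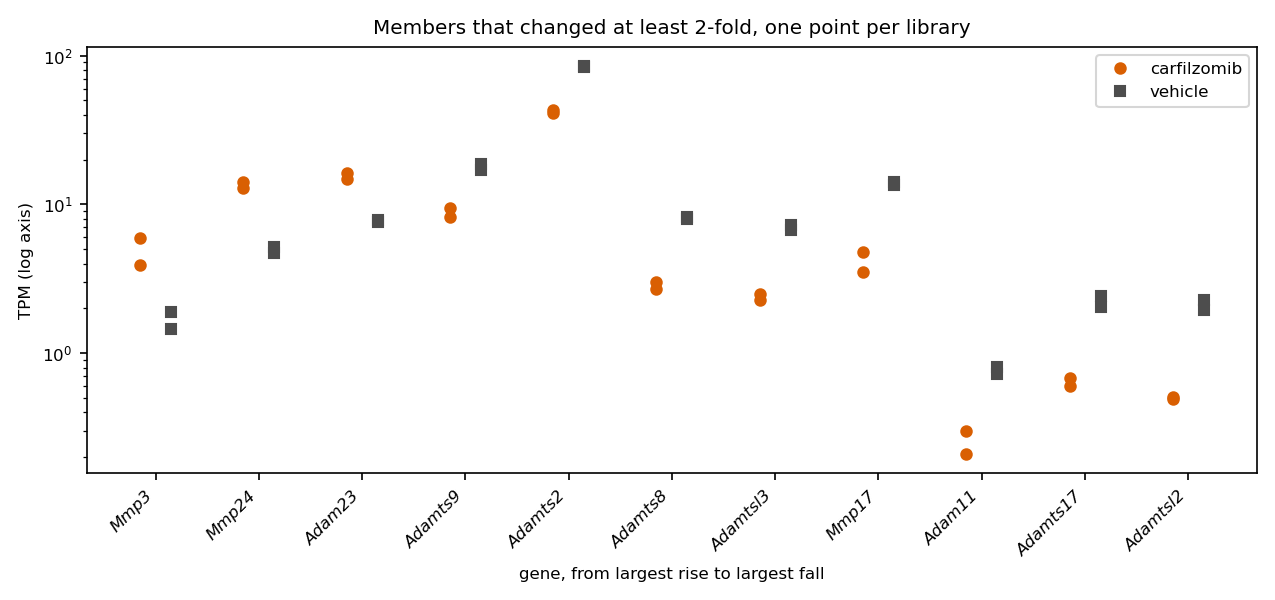
TPM on a log axis of the 11 genes that passed the test and changed at least 2-fold, from the largest rise to the largest fall; circles are carfilzomib libraries and squares vehicle libraries, 1 point per library. In all 11 the groups do not overlap, which their choice by test and fold change favours. The same holds for 11595 of all 14519 genes tested. Of the 11 genes 3 lie higher with carfilzomib.

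Genes of the wider pathway were described by lists. For comparison, 60.7% of all genes tested were called, 30.6% higher and 30.1% lower. Of 21 tested matrix substrates of these enzymes 20 fell, 0 rose and 1 was not called (95.2% called). The median log2 fold change was -0.79. Eln, elastin, fell by 1.94, to 20.9 and 17.7 TPM with carfilzomib against 74.8 and 72.9 TPM with vehicle, and Fbn2, fibrillin 2, by 1.41 on the log2 scale. With library size alone, or without vehicle replicate 1, 1 matrix gene passed as higher. Of 20 other matrix proteases and activators 5 rose, 12 fell and 3 did not pass (85% called). The lysosomal proteases Ctsd and Ctsl rose, with Ctsd, cathepsin D, at 1348 and 1346 TPM in carfilzomib libraries and 503 and 519 TPM in vehicle libraries and Ctsl, cathepsin L, at a log2 fold change of 0.78. Ctsk, the collagen-cutting cathepsin, had a log2 fold change of -0.66, and Pcsk5, a proprotein convertase, one of -0.75; both fell.

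Of 21 other protease inhibitors and clearance genes 5 rose, 10 fell and 6 did not pass. This is 71.4% called, against 60.7% of all genes tested. Serpinb6a, an intracellular serpin with decimals in its counts, rose to 378 and 389 TPM with carfilzomib, against 134 and 124 TPM with vehicle, a log2 fold change of 1.57. Tfpi, the inhibitor of the tissue factor pathway, rose by 0.99. Serpinf1, a secreted anti-angiogenic serpin, fell by 1.36, and A2m, a broad protease trap, by 1.30. Among 18 partners and shed ligands of ADAMs 5 rose, 8 fell and 5 did not pass (72.2% called). Tspan17, a tetraspanin that binds ADAM10, whose counts carry decimals, rose to 107 and 104 TPM with carfilzomib against 26.4 and 24.5 TPM with vehicle, a log2 fold change of 2.03, while Tspan15, another ADAM10 partner, fell by 1.22. Nrg1, a ligand of ERBB receptors that is released by shedding, fell by 1.36, and Il6r, a shed cytokine receptor, rose by 0.53.

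**Figure D4:**
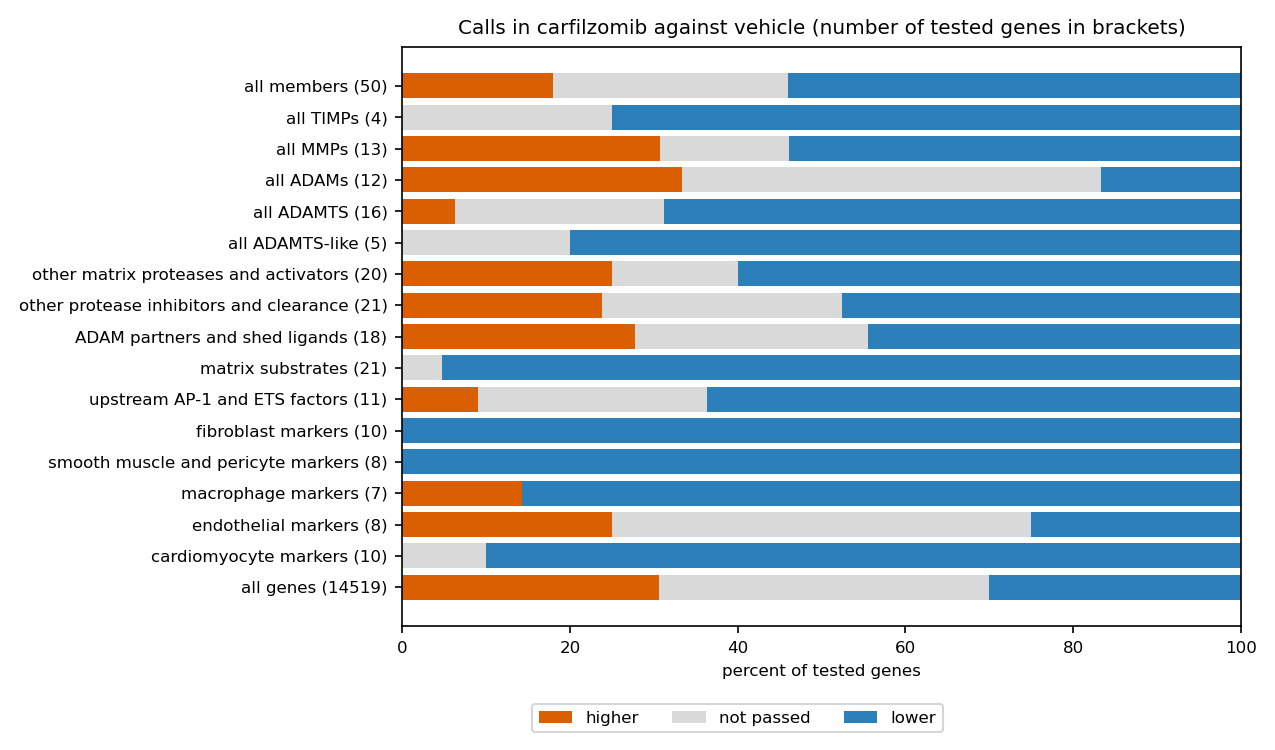
Share of tested genes called higher (orange), not passed (grey) or lower (blue) with carfilzomib against vehicle, for the 50 genes, their 5 families, the pathway lists, the cell type markers and all 14519 genes tested, with the number of tested genes in brackets. Of the 5 families only the ADAMs hold more genes called higher than lower, 4 of 12 against 30.6% of all genes tested.

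The authors' deposited table of their own comparison lists 6063 genes, and 34 of the 63 genes are among them. All 34 were also called here, and the direction in the authors' deposited table was the same for each. Both comparisons use the same 4 libraries, so this match is not independent. The largest q-value listed for the 34 is 0.0165, for Mmp16. In the authors' deposited table Mmp2 has a log2 fold change of 0.11 with a q-value of 0.0105, and Timp1 one of -0.34 with a q-value of 5.84e-07.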

How the data were processed

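RNA of 4 libraries was compared, 2 per group, with groups and replicate numbers from the sample titles; columns named as a control were taken as vehicle. The authors deposited estimated counts per gene, about 29% of them with decimals (over 1e-06 from a whole number) in each library, and TPM values, per the file headers. The authors also deposited a table with log2 fold changes and q-values from DESeq2, per the file headers. The build Rnor_6.0, the aligners HISAT and Bowtie2, featureCounts 1.6.0, cutadapt 2.0, FastQC 0.11.8, R 3.3.2 and DESeq2 are named in the submitters' processing notes, without roles; strand and the origin of the decimals are not given in the sources. Of the 63 genes 20 have decimals in at least 1 library, so part of their reads may be shared with similar or overlapping genes. The called genes among them are Mmp3, Mmp16, Adam11, Adam12, Adam23, Adamts2, Adamts9, Adamts15, Adamts17 and Adamtsl5. A further 10 columns of expression values were left aside.

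Counts were rounded and tested with edgeR 4.0.16 in R 4.3.3 (filterByExpr at a count of 10 and a total of 15, TMM, robust quasi-likelihood F test, Benjamini-Hochberg adjustment over all genes tested). The SE is the absolute log2 fold change over the square root of F, and TPM served for levels. The fit was also run on simulated counts as a check of the code, which does not give the error rate in these data. Replicates differed by more than sampling noise (chi-square per degree of freedom 2.99 for carfilzomib and 3.32 for vehicle). The genes and the 10 lists, with 147 entries of which 1 was unmatched, were chosen with earlier results of these data known. Genes named with values per library are Mmp2, Mmp14, the TIMPs, Adam10, Adam17, Adamts1 and the 3 called members of each subfamily with the largest change; from each pathway list, up to 2 rises and 2 falls at a mean of at least 10 CPM; other members were named after their values were seen. Serpinb6 was matched to Serpinb6a through RefSeq. Alternatives were DESeq2 1.42.0, library size alone, RLE factors, a fit without the low-count filter, a stricter filter (1 CPM in 2 libraries, total at least 50), a replicate block, and each library left out.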

Additional observations from a re-analysis of the deposited data

How the results depend on the processing

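The number of the 63 genes called lay between 34 and 38 under the 10 alternatives, against 36 as reported. Of the 36 called genes 32 kept their call and direction under every alternative in which they were tested; Mmp2, Timp2, Adam11 and Adamts15 did not. With 1 library left out the genes called were 35 to 38, those higher 8 to 9, those lower 26 to 29, and the median log2 fold change of the tested genes lay between -0.45 and -0.37. DESeq2 called 34 of the 63 and 33.5% of all 18659 genes with a count. On the same 18659 genes edgeR without the low-count filter called 36 of the 63 and 47.7% of all. The 60.7% reported for edgeR is a share of the 14519 genes that passed the filter. The sign of Timp4, a gene that did not pass, turned when a library was left out: its log2 fold change then lay between -0.56 and 0.0099, the highest without carfilzomib replicate 2. Libraries with the same replicate number showed no shared deviation from the group means over the genes tested (correlation -0.02). This cannot tell whether they share a culture or litter, which the labels do not state. With a replicate block 36 genes were called, 9 higher and 27 lower. Under that block Mmp2 no longer passed, with an edgeR adjusted p of 0.0844, and Mmp11 did, with 0.0149. The causes of these changes were not tested. Counts below about 30 per library, as for Timp4, Mmp25, Adam4 and Adam11, leave standard errors of 0.31 to 0.41 on the log2 scale.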

Other observations

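The 13 genes that were not tested were Mmp8, Mmp10, Mmp13, Mmp20, Mmp28, Adam2, Adam5, Adam28, Adam30, Adam32, Adamts13, Adamts16 and Adamts18, and 12 of them stayed under 1 TPM in every library. Mmp28, epilysin, was uneven within groups, with 7.37 and 0 estimated counts in carfilzomib libraries and 0 and 19.5 in vehicle libraries. Adam28 had 2 and 3 counts with carfilzomib and 0 and 0 with vehicle, where 0 counts allow up to 3, so no difference was detectable at this depth. Adamts16 had 0 and 2 counts with carfilzomib against 3 and 9 with vehicle.

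Mmp11 was higher in replicate 1 than in replicate 2 of either group, at 559 and 419 estimated counts with carfilzomib and 442 and 345 with vehicle. Its reads carry decimals, and whether they are shared with another gene was not tested.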
